A study of Mus musculus with 30 samples.

Results

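Interferon response and antigen presentation genes were followed in mouse retinas of oxygen-induced retinopathy (OIR), a model in which pups breathe high oxygen, lose retinal capillaries and then regrow them. The 42 genes were chosen by name: 7 of sensing and signalling, 17 interferon-induced effectors, 8 of the immunoproteasome and of peptide loading, 4 of MHC class I and 6 of MHC class II. A gene counted as measured where the array platform's annotation gave it a probe set that names no other gene, and of several such probe sets the brightest, by its mean over the 30 arrays, stood for the gene. That left 38 of the 42, among 12393 measured genes in all: 7, 15, 7, 3 and 6 by role. Isg15, Psme2 and H2-T23 lie only on probe sets annotated with several genes and Xaf1 on none with a single symbol, so these 4 were not analysed here.

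RNA of 1 retina per pup was hybridised to 1 array, with 3 pups in each of 10 groups. Pups of 9 groups went through OIR, breathing 75% oxygen from postnatal day 7 (P7) for 5 days. At P12, or in other pups at P5, the vitreous received 100000 endothelial colony-forming cells of human origin (ECFC), 10000 CD34+ blood progenitor cells, also human, both together (110000 cells, called the combination here) or saline. The other groups were untreated OIR pups and untreated pups kept in room air (normoxia). The cells were human in a mouse eye, and neither the mouse strain nor the immune state of the pups is given in the sources used here. Every sample label gives P17 as the stage, while the protocols leave P12 and P17 both possible and the design text ties injection at P5 to collection at P12, so in comparisons of P5 groups with other groups the injection day and the collection day cannot be told apart. The labels call these separate pups. The p-values rest on 1 spread per gene, taken between pups of the same group and pooled over all 10 groups. A wide spread in 1 group thus enters the SE of every comparison.

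Cells sense foreign nucleic acid through proteins such as Ifih1 and answer with interferons, which act through receptors, JAK kinases and STAT and IRF transcription factors on a large set of interferon-stimulated genes. Many of these genes restrict viruses, and others raise the display of peptides: the immunoproteasome cuts them, Tap1 and Tap2 pump them into the endoplasmic reticulum, and class I molecules with B2m show them on the surface of nearly all cells. Class II molecules (H2-Ab1, H2-Aa and H2-Eb1 in mice) are found mainly on professional antigen-presenting cells, need the transactivator Ciita, and are escorted by the invariant chain Cd74. In the retina, microglia are the resident cells best known for such responses.

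Promoter windows are shown because they hold DNA elements known from interferon-stimulated and MHC genes. They come from RefSeq (GRCm38.p6), which held promoters, 250 bases before to 50 after the start of the gene, for 31 of the 38 measured genes. The core of the interferon-stimulated response element, through which STAT2 and IRF proteins act, was searched as GAAANNGAAA on both strands. It was present in 14 of 31 members (45.2%), against 3.84% of the 9887 measured genes with a promoter and 3.44% of all 32851 promoters. The members with it were B2m, Bst2, Gbp2, Gbp3, Ifih1, Ifit1, Ifit3, Ifitm3, Igtp, Irgm1, Psme1, Rsad2, Stat2 and Trim30a. In the windows below, capitals mark every match upstream of the start site, overlapping matches run together, and each line reads 5′ to 3′ on the strand of the gene. The windows lie at chr19:34640764-34640853 (plus strand) for Ifit1, chr19:34583367-34583456 (plus) for Ifit3, chr8:71537547-71537636 (minus) for Bst2, chr3:142620564-142620653 (plus) for Gbp2, chr11:48871421-48871484 (minus) for Irgm1 and chr2:122147508-122147597 (plus) for B2m.
Ifit1: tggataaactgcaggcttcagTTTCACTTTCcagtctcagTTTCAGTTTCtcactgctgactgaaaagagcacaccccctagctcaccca
Ifit3: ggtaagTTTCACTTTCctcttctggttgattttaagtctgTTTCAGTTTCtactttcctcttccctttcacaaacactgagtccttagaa
Bst2: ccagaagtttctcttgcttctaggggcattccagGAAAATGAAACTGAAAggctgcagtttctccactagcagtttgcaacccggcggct
Gbp2: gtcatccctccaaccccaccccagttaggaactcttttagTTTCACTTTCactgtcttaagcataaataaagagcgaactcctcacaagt
Irgm1: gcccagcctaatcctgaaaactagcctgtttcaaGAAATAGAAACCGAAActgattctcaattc
B2m: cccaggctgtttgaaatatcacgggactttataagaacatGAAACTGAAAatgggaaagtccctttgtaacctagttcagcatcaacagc

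Ifit1, Ifit3, Bst2 and Irgm1 each held 2 matches in the window, and Gbp2 and B2m held 1. The Y box, a CCAAT-type element of class I and class II promoters bound by the factor NF-Y, was searched as CTGATTGG on both strands. It was present in 7 of 31 members (22.6%), against 5.99% of measured genes with a promoter and 4.1% of all promoters. The 7 were H2-Aa, H2-D1, H2-Eb1, H2-K1, Irf8, Psmb9 and Tap1, so neither element keeps to 1 role. H2-Ab1 was not among them. Matches of the Y box are shown for the class II genes H2-Aa and H2-Eb1 and for the class I gene with a match upstream of the start site. They lie at chr17:34287827-34287914 (minus) for H2-Aa, chr17:34305765-34305852 (plus) for H2-Eb1 and chr17:35263001-35263088 (plus) for H2-D1.
H2-Aa: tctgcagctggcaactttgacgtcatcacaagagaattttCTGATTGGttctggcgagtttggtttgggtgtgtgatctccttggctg
H2-Eb1: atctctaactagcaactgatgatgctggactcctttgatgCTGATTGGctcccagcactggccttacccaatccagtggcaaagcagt
H2-D1: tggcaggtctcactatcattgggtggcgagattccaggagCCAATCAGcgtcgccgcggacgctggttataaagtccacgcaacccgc

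A match is a description of these windows and not a sign that a factor was bound there.

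All levels below are the deposited log2 values, so a difference of 1 is a doubling, and probes of different genes cannot be ranked by amount. Array medians lay between 8.16 and 8.49. As a guide to background, Y-linked genes read up to 5.41 on the 14 arrays with high Xist, and Xist up to 5.70 on the others. Xist read 12.41, 12.28 and 12.48 on the P5 combination arrays and 5.40, 5.03 and 5.51 on the P12 combination arrays. Every other group held both high and low readings. Pup sex, as read from Xist, thus differs along with treatment in comparisons of the combination, and its part was not tested. The means of Usp18, Irgm1, Mx1, H2-Aa, H2-DMa and Ciita over all arrays were at or under 5.70, so a low reading of these 6 is near background. Hybridisation controls read 13.23 to 13.65 on P12 arrays and 11.86 to 12.96 on the others, and the lens markers averaged 7.52 to 14.17 on P5 arrays. Differences are given ± SE from limma with Benjamini-Hochberg adjusted p over 12393 genes, and a gene was called at an adjusted p under 0.05. Shares of all genes called belong to the main fit. Counts under other settings, or with arrays left out, are given without that share. They do not show whether members changed more than genes in general.

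2 arrays stood apart for these genes. The array of P5 ECFC replicate 3 gave the highest reading of all 30 for 26 of the 38 members and was among the top 3 for 32. The mean over the members was 8.93 there, 8.29 on the array of P5 CD34 replicate 1, and 7.26 to 8.02 on the other 28, none of which was highest for more than 2 members. The map of all members shows these as the darkest columns.

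**Figure D1:**
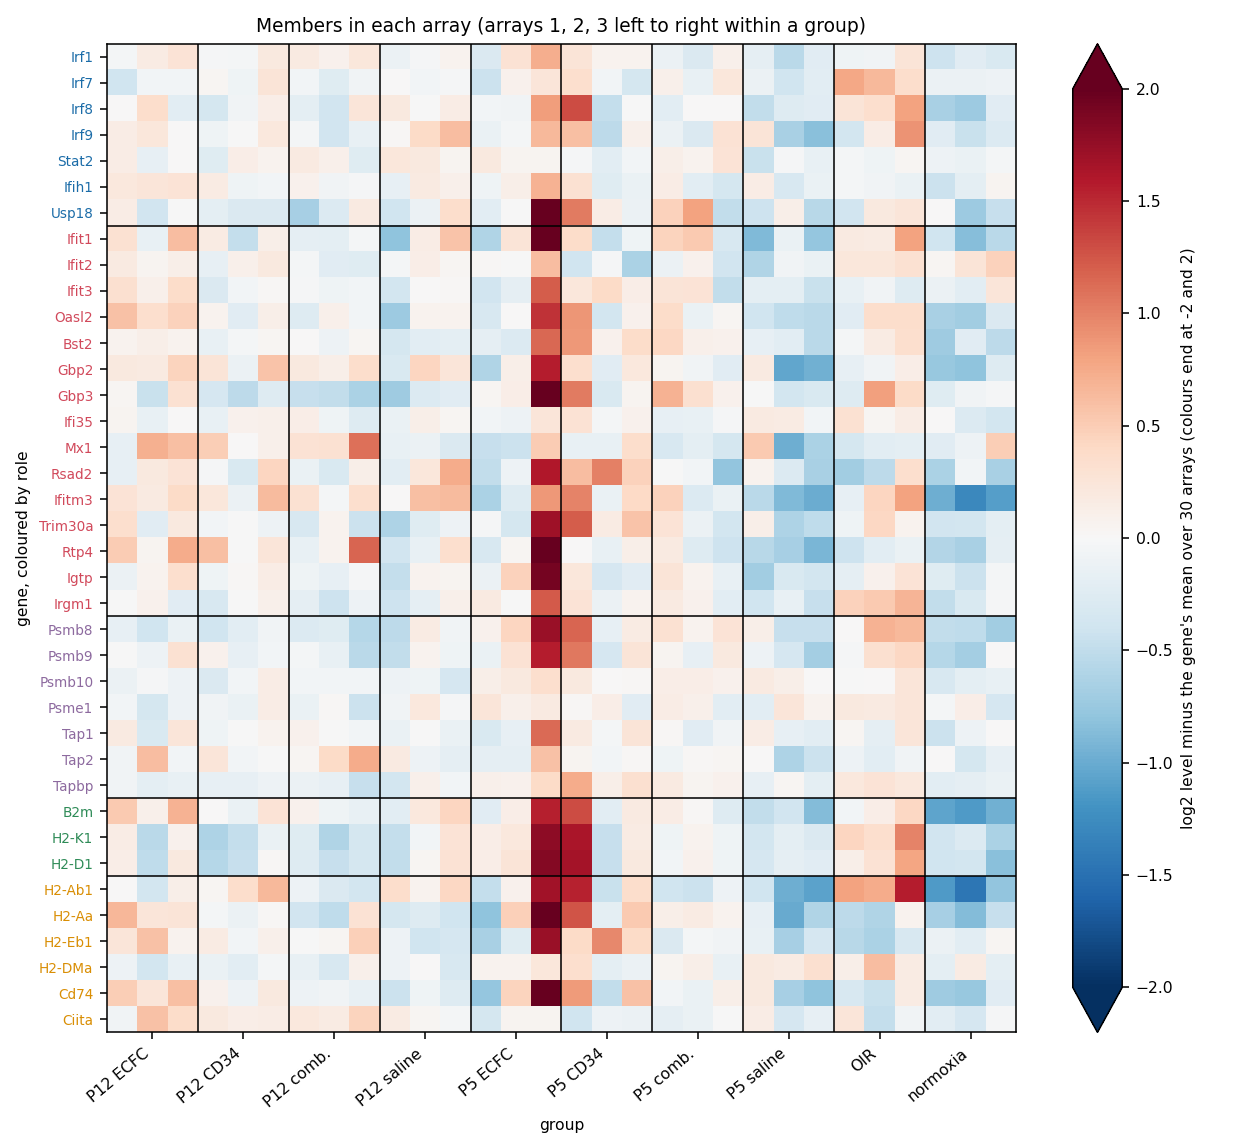
Each row is 1 of the 38 members and each column 1 of the 30 arrays, coloured by the log2 level minus that gene's mean over all arrays; names are blue for sensing and signalling, red for effectors, purple for immunoproteasome and loading, green for class I and orange for class II. The third P5 ECFC column is red for most genes, and the first P5 CD34 column mainly for class I, H2-Ab1 and several effectors.

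On the array of P5 ECFC replicate 3, the class II chain gene H2-Aa read 9.39, against 4.62 to 6.89 on the other 29 arrays. Cd74, the invariant chain, read 9.81 there, against 6.42 to 8.07 elsewhere, and Ifit1, which binds foreign RNA, 8.95, against 5.84 to 7.53. H2-Eb1 read 8.88, against 6.49 to 8.11 on the others. For these 4 genes, and for Usp18, Gbp2 and Igtp, the reading lay above that of every other array. Usp18, which dampens interferon receptor signalling, read 7.5, against 4.51 to 6.28, the guanylate-binding protein gene Gbp2 8.54, against 5.94 to 7.55, and the GTPase gene Igtp 9.61, against 7.00 to 8.16. Stat2, Psme1, Ciita and Irf7 did not stand out: their readings there were 7.87, 10.87, 5.76 and 7.33, within the range of the other arrays.

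Gene by gene, the array of P5 CD34 replicate 1 was close to it for some members and far below it for others. Readings on the arrays of P5 ECFC replicate 3 and P5 CD34 replicate 1 were 13.28 and 13.02 for B2m, 11.82 and 11.65 for H2-K1, 12.07 and 11.90 for H2-D1, and 9.54 and 9.39 for H2-Ab1. For H2-Aa they were 9.39 and 6.89, for Rtp4, an interferon-induced chaperone gene, 8.88 and 6.85, and for Ifit1 8.95 and 7.09. Ifitm3 was slightly lower on the ECFC array (11.61 and 11.73), so effectors and class II genes each held close and distant members. By role, the median member of MHC class I was 0.17 higher on the ECFC array, the median effector 0.97 and the median class II gene 0.90 on the log2 scale. These are single retinas, so no test applies.

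Microglia and macrophage markers were high on both arrays, while other leukocyte lists differed between them. The mean of 19 microglia and macrophage markers was 8.76 on the array of P5 ECFC replicate 3 and 9.91 on that of P5 CD34 replicate 1, the 2 highest of 30. The other arrays ran from 7.18 to 8.47, the last being P5 CD34 replicate 3, so the ECFC array lay much closer to them. Ptprc, the pan-leukocyte gene coding CD45, read 8.01 on the ECFC array and 9.32 on the CD34 array, against a median of 6.20 in the other arrays. The microglial gene Aif1 read 8.60 and 9.12, against a median of 7.45. Itgax, coding CD11c, read 8.83 on the CD34 array, 5.69 on the ECFC array and at most 5.94 elsewhere, while the mean of the dendritic cell list that holds it ranked 7 of 30 on the CD34 array and 2 on the ECFC array. Of the T and NK cell list, Cd3e read 5.59 on the ECFC array, which ranked 6 of 30, and Cd79a of the B cell list 6.63, which ranked 14. The T and NK list mean was 6.68 there, the highest of 30, with up to 6.63 on the others. On the CD34 array the T and NK list mean (5.70) ranked 29, the B cell list (5.55) 28 and the neutrophil and monocyte list (5.36) 27, and Cd3e read 4.53, the lowest of 30. Gzma, a granzyme gene of NK and cytotoxic T cells named after its values were seen, read 6.73 on the ECFC array, at most 4.84 on the others and 3.75, the lowest, on the CD34 array, and Cd68, chosen the same way, 10.38 on the CD34 array and at most 7.78 on the others. Gzma is part of the T and NK list, so the list mean and Gzma are not separate signs. Without Gzma the list mean on the ECFC array would not be the highest. Lists of other cell types differed too: on the CD34 array pigment epithelium markers were the highest of 30 (10.80) and Muller glia markers ranked 2 (11.59), and endothelial (8.39) and red blood cell markers (5.77) were the lowest. The part of these cells in the member levels was not tested, and in whole retina more cells of a type and more RNA per cell cannot be told apart.

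**Figure D2:**
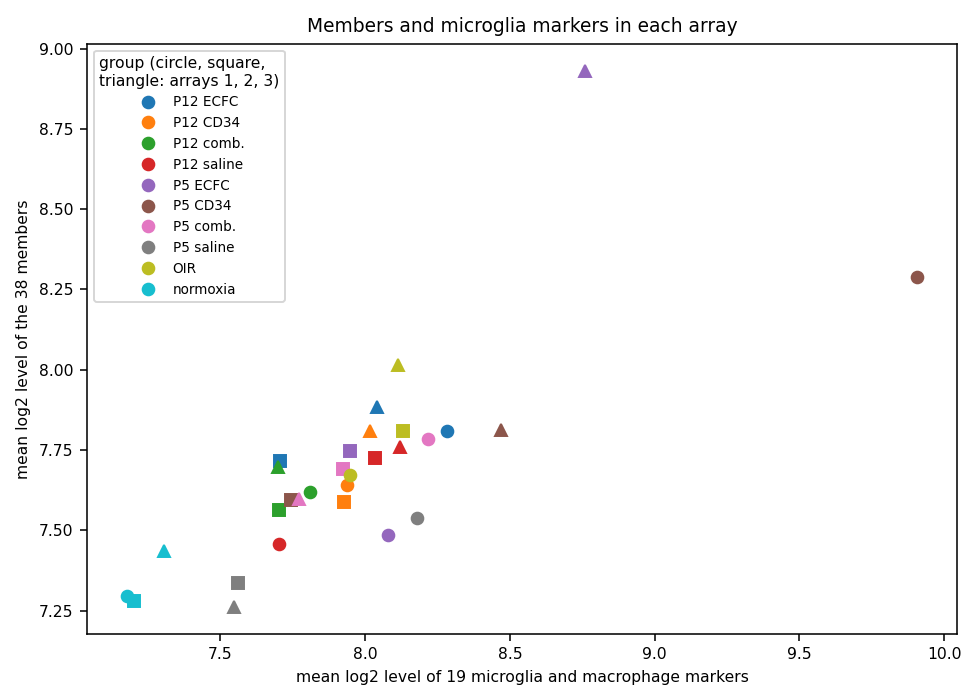
Each point is 1 array, with the mean log2 level of 19 microglia and macrophage markers on the x axis and that of the 38 members on the y axis, coloured by group. The array of P5 ECFC replicate 3 lies highest (8.93) at a marker mean of 8.76, and that of P5 CD34 replicate 1 furthest right (9.91) at a member mean of 8.29.

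The comparison of untreated OIR with normoxia asked what the disease model itself did to these genes. Of the 38 members 5 rose and 0 fell: Irf7, Ifitm3, Irgm1, B2m and H2-Ab1. Among all genes 4.56% were called and 3.59% were called higher. In addition, 34 of the 38 differences were positive, with a median of 0.39 against -0.02 over all genes, and for 19 members all 3 OIR arrays lay above all 3 normoxia arrays, as they did for 12.9% of all genes.

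Irf7, the master factor of the type I interferon loop, read 7.86, 7.74 and 7.44 in OIR retinas, against 6.96, 6.97 and 6.99 in normoxia. It rose by 0.71 ± 0.16 (adjusted p = 0.0114). The groups did not overlap, and OIR was the group with the highest Irf7 mean of all 10. The other signalling genes did not pass the test. Irf8, a factor of microglia and other myeloid cells, differed by 1.0 ± 0.30 (adjusted p = 0.0593), but its second probe set by 0.32 only. Stat2, a signal carrier of type I interferon, differed by 0.06 ± 0.12. Irf1, a factor of interferon gamma responses, differed by 0.35 ± 0.17 (adjusted p = 0.249).

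Of the 15 effectors, Ifitm3, which blocks the entry of viruses at membranes, read 10.58, 11.18 and 11.54 in OIR and 9.77, 9.45 and 9.64 in normoxia, a rise of 1.48 ± 0.32 (2.79-fold, adjusted p = 0.0058). Irgm1, an interferon-inducible GTPase gene, read 5.80, 5.87 and 6.02 in OIR against 4.86, 5.03 and 5.32 in normoxia, a rise of 0.83 ± 0.22 (adjusted p = 0.0259) that starts near background. Both were fully separated between the groups. Other effectors known as classical targets of type I interferon did not pass. Ifit1 differed by 0.98 ± 0.46 (adjusted p = 0.234) and Oasl2 by 0.70 ± 0.32, while Ifit2 and Ifit3 differed by -0.01 ± 0.17 and -0.13 ± 0.26, and Mx1, an antiviral GTPase gene near background, by -0.31 ± 0.31. The SDs of Ifit1 were 0.37 in OIR and 0.23 in normoxia, but 1.45 after ECFC at P5, which enters the shared SE.

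In the peptide-processing group no member of 7 passed, although all 7 differences were positive, with a median of 0.30. Psmb8, the immunoproteasome subunit LMP7, read 7.88, 8.56 and 8.52 in OIR and 7.37, 7.36 and 7.17 in normoxia, a difference of 1.02 ± 0.32 (adjusted p = 0.0657). Tapbp, coding tapasin, which holds class I molecules at the peptide pump, differed by 0.41 ± 0.13 (adjusted p = 0.0748). The groups were separated for both genes.

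The 3 class I genes were all higher in every OIR array. B2m, the light chain of class I, read 11.67, 11.86 and 12.13 in OIR against 10.67, 10.58 and 10.75 in normoxia, and rose by 1.22 ± 0.34 (adjusted p = 0.0364). H2-K1 read 10.44, 10.36 and 11.01 in OIR against 9.64, 9.75 and 9.39 in normoxia, a difference of 1.01 ± 0.39 (adjusted p = 0.141). H2-D1 differed by 0.93 ± 0.40 (adjusted p = 0.189). Class I heavy chain genes are close in sequence, so the 4 probe sets of H2-K1 and the 9 of H2-D1 may not tell them apart, and the 9 of H2-D1 differed by -0.31 to 0.93. The second B2m probe set gave a difference of 1.37.

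The class II genes differed in size and sign. H2-Ab1, the beta chain of I-A, read 8.67, 8.61 and 9.43 in OIR and 6.72, 6.41 and 7.07 in normoxia, a rise of 2.17 ± 0.41 (4.49-fold, adjusted p = 0.00203). Its partner chain H2-Aa read 5.10, 5.02 and 5.70 in OIR against 4.96, 4.76 and 5.17 in normoxia, close to background in both (0.31 ± 0.62, adjusted p = 0.816). The SDs of H2-Aa were 0.37 in OIR and 0.20 in normoxia, but 2.36 after ECFC at P5, which enters the shared SE. Cd74 differed by 0.36 ± 0.48 (adjusted p = 0.7), H2-Eb1 by -0.40 ± 0.34 and Ciita by 0.09 ± 0.17. The other H2-Ab1 probe sets differed by 0.78 and 0.44, less than the one used.

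Markers of several cell types moved in the same comparison. Of the endothelial markers 12 of 12 differences were positive and 7 passed (median 0.80), and of the pericyte and mural markers 8 of 8 were positive and 7 passed (median 0.85). Of the microglia markers 17 of 19 differences were positive, 3 passed (Aif1, C1qb and C1qc, of 1.22, 1.41 and 1.71), and the list mean ran over 7.95 to 8.13 in OIR and 7.18 to 7.31 in normoxia. Their part in the result was not tested. The number of members called was 2 without OIR replicate 3, 3 without OIR replicate 2 and 3 without normoxia replicate 2, and 3 after median centring against 9 when only these 6 arrays were fitted. H2-Ab1 passed under all 15 alternatives tried and B2m under 7.

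**Figure D3:**
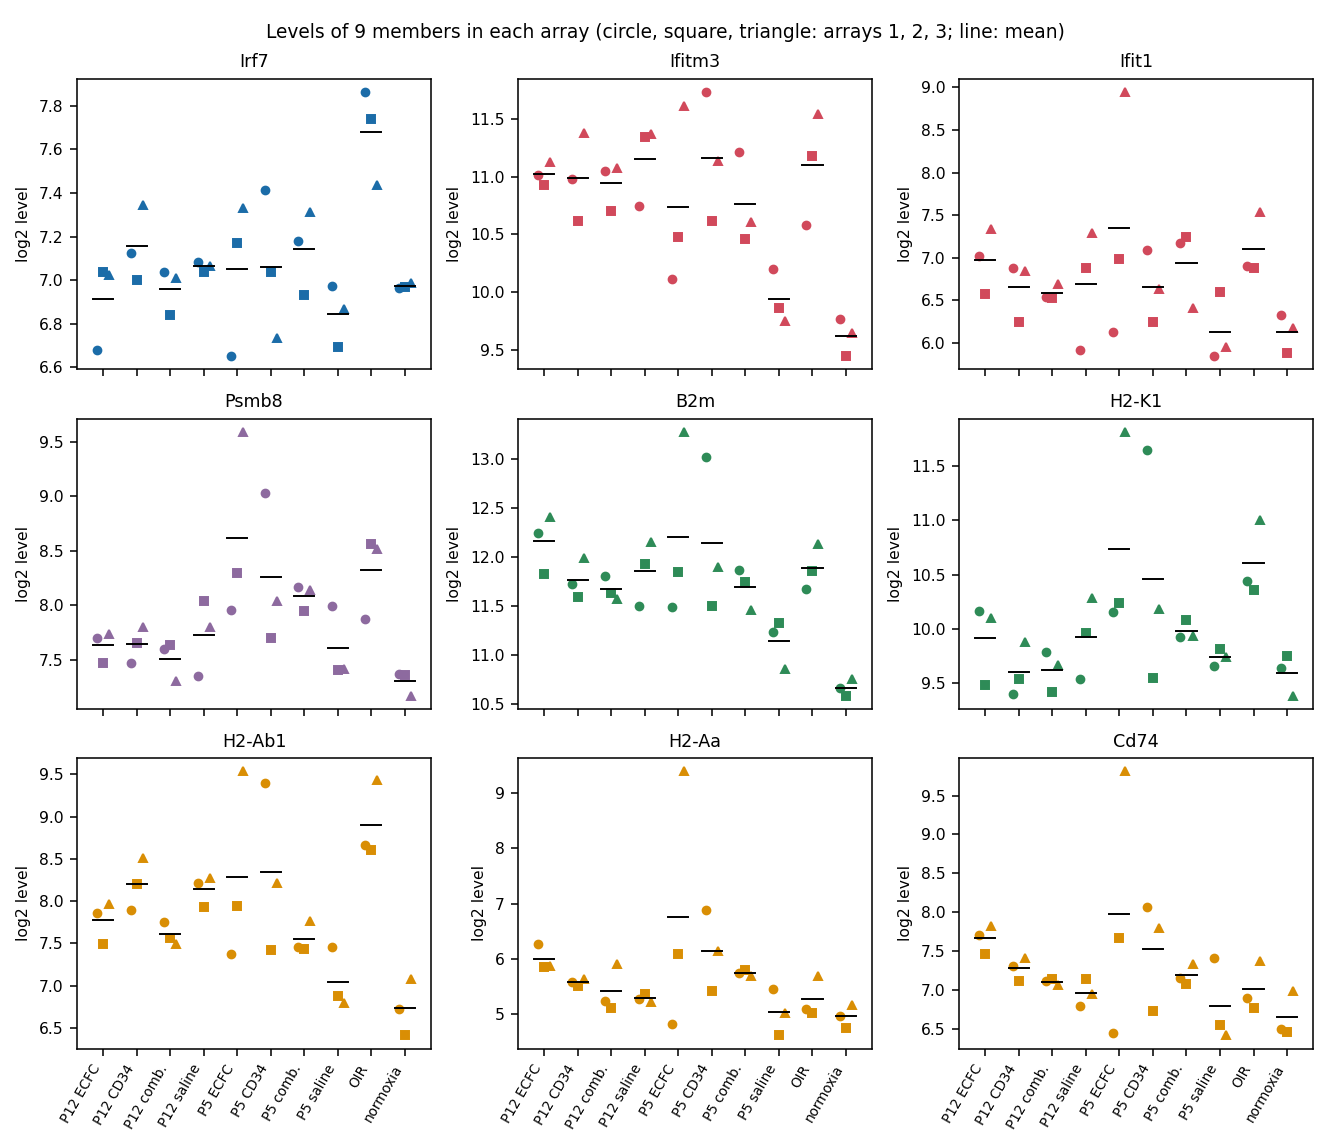
Log2 level of 9 members in each of the 30 arrays, grouped on the x axis; circle, square and triangle are replicates 1, 2 and 3 and the line is the group mean (n = 3). Irf7, Ifitm3, B2m and H2-Ab1 are separated between OIR and normoxia, while H2-Aa and Cd74 are highest on the array of P5 ECFC replicate 3 (9.39 and 9.81).

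In retinas injected with saline at P12, against untreated OIR, 3 of 38 members fell and 0 rose, where 21.3% of all genes were called and 15.4% were called lower. Irf7 read 7.09, 7.04 and 7.07 after saline at P12 against 7.86, 7.74 and 7.44 in OIR, and fell by 0.62 on the log2 scale (SE 0.16, adjusted p = 0.0094). Irgm1 read 4.93, 5.16 and 5.44 after saline at P12 against 5.80, 5.87 and 6.02 in OIR, and fell by 0.72 (SE 0.22, adjusted p = 0.0195). H2-DMa, which helps to load class II molecules, read 5.54, 5.66 and 5.32 after saline at P12 against 5.76, 6.26 and 5.81 in OIR, and fell by 0.44 (SE 0.15, adjusted p = 0.0352). The groups did not overlap for any of the 3, and Irgm1 and H2-DMa lay close to background. All P12 saline arrays lay below the OIR arrays for 11 members, as for 28.3% of all genes. B2m and Ifitm3 differed by -0.03 ± 0.34 and 0.05 ± 0.32, and the H2-Ab1 difference of -0.76 ± 0.41 did not pass (adjusted p = 0.198). The hybridisation controls differ between these groups, and with their mean as a covariate no member was called. After median centring, under which the median difference of all genes was 0.16 against -0.03 before, 1 member was called, and it was higher. Without P12 saline replicate 1 the count was 1.

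In retinas injected with saline at P5, against untreated OIR, 4 members fell and 0 rose, where 8.69% of all genes were called and 4.88% were called lower. Irf7 read 6.97, 6.69 and 6.87 after saline at P5 against 7.86, 7.74 and 7.44 in OIR, and fell by 0.83 (SE 0.16, adjusted p = 0.0030). H2-Ab1 read 7.46, 6.88 and 6.79 after saline at P5 against 8.67, 8.61 and 9.43 in OIR, and fell by 1.86 (SE 0.41, adjusted p = 0.0066). For both genes every P5 saline array lay below every OIR array. Ifitm3 read 10.20, 9.87 and 9.75 after saline at P5 against 10.58, 11.18 and 11.54 in OIR, and fell by 1.16 (SE 0.32, adjusted p = 0.0236). Irgm1 read 4.95, 5.19 and 4.88 after saline at P5 against 5.80, 5.87 and 6.02 in OIR, and fell by 0.89 (SE 0.22, adjusted p = 0.0117). These groups did not overlap either. In all, 35 of 38 differences were negative, with a median of -0.46 against 0.02 over all genes, and 17 members lay fully below OIR, as 14% of all genes did. These 4 are among the 5 that rose in OIR against normoxia, and the same 3 OIR arrays enter both comparisons. Markers of other cell types differed here as well: lens markers were called higher in 11 of 11 (median 6.66) and pigment epithelium markers in 6 of 9 (median 1.54), and endothelial markers were called lower in 7 of 12 (median -0.67) and pericyte and mural markers in 5 of 8 (median -0.82). Of 19 microglia markers 16 differences were negative and 0 passed. The part of these cells in the result was not tested. With lens markers as a covariate 0 members were called and with the hybridisation control mean 7. Only these 6 arrays gave 2 calls, as did leaving out OIR replicate 3.

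Set against normoxia, 1 member rose after saline at P5 and 0 fell. It was Psmb10, an immunoproteasome subunit gene, where 8.1% of all genes were called. Psmb10 read 9.18, 9.11 and 9.0 after saline at P5 against 8.68, 8.80 and 8.85 in normoxia, a rise of 0.32 ± 0.10 (adjusted p = 0.0475), which passed under 2 of 15 alternatives only. Lens markers were called higher in 11 of 11 here too, and their part was not tested. The median member difference was 0.07 against 0.02 over all genes. H2-Ab1 differed by 0.31 ± 0.41, Irf7 by -0.13 ± 0.16 and B2m by 0.47 ± 0.34.

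Cells injected at P12 left no called member. Against P12 saline, 0 of 38 members were called after ECFC, CD34+ cells or the combination, where 0.0161%, 0% and 0% of all genes were called. At an unadjusted p under 0.05 the counts were 0, 0 and 1, against 1996, 643 and 1226 of all 12393 genes. The SDs of H2-Aa and Cd74 were 0.24 and 0.18 after ECFC at P12. After ECFC at P5 they were 2.36 and 1.70, which enters the shared SE. The low counts thus do not show that members changed less than genes in general. Median differences were 0.14, 0.05 and -0.07. The smallest unadjusted p after ECFC was that of Oasl2, an oligoadenylate synthetase-like gene, which read 8.70, 8.45 and 8.58 after ECFC at P12 against 7.39, 8.19 and 8.18 after saline, a difference of 0.66 ± 0.32 (adjusted p = 0.32). After the combination it was that of Mx1, which read 5.88, 5.88 and 6.68 against 5.44, 5.46 and 5.30 after saline (0.75 ± 0.31, adjusted p = 0.497), and after CD34+ cells that of Stat2, which read 7.58, 7.95 and 7.89 against 8.05, 8.02 and 7.87 after saline (-0.17 ± 0.12, adjusted p = 0.925). The groups were separated for Oasl2 and Mx1 and overlapped for Stat2. Ifih1, Ifit3, Bst2, H2-Eb1, Cd74 and H2-Aa also lay fully above saline after ECFC. Cd74 read 7.71, 7.47 and 7.83 against 6.80, 7.14 and 6.95 after saline, and H2-Aa 6.28, 5.86 and 5.87 against 5.27, 5.37 and 5.22. Irf7 lay just below saline, with a difference of -0.15. Of all genes 13.9% lay fully above saline after ECFC and 13.6% fully below. With 3 arrays a group and a spread shared over all groups, smaller differences could not be shown. ECFC and the combination against CD34+ cells at P12 also gave 0 called members, where 0% and 0% of all genes were called.

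Cells injected at P5 gave the widest spread, because the arrays that stand apart belong here. After ECFC, against P5 saline, 0 members were called and 0% of all genes were. Yet 36 of 38 differences were positive, with a median of 0.64 against -0.02 over all genes, and 24 members reached an unadjusted p under 0.05, where 6.29% of all genes did. For 12 members all ECFC arrays lay above all saline arrays, as for 3.49% of all genes.

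The member with the smallest p was Igtp, which read 7.58, 8.16 and 9.61 after ECFC at P5 against 7.00, 7.38 and 7.31 after saline, a difference of 1.22 ± 0.30 (adjusted p = 0.356). Irgm1 read 5.52, 5.34 and 6.57 after ECFC against 4.95, 5.19 and 4.88 after saline (0.80 ± 0.22, adjusted p = 0.396), and Irf1 8.21, 8.79 and 9.23 against 8.32, 7.96 and 8.27 (0.56 ± 0.17, adjusted p = 0.457). Replicate 3 was the highest of the ECFC arrays for these 3 genes. B2m differed by 1.07 ± 0.34, H2-K1 by 1.0 ± 0.39 and H2-D1 by 0.99 ± 0.40, and for each of these class I genes all ECFC arrays lay above all saline arrays. The class II genes H2-Aa and Cd74 differed by 1.73 ± 0.62 and 1.18 ± 0.48 with SDs of 2.36 and 1.70 among the 3 ECFC arrays.

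Without P5 ECFC replicate 3, 30 of 38 differences were still positive, the median was 0.27, and 0 members were called. The largest was then that of Igtp at 0.64, followed by H2-Ab1 at 0.62, Rtp4 at 0.57 and B2m at 0.53. Without P5 ECFC replicate 1 the median was 0.98 and 2 members were called, both higher. Of the 19 microglia markers 17 differences were positive and 0 passed in this comparison, with a median of 0.58. The mean of the lens markers was 9.84, 9.06 and 9.65 after ECFC against 13.92, 13.51 and 10.98 after saline. The part of either list in the result was not tested.

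After CD34+ cells at P5, 2 members rose against P5 saline and 0 fell, where 8.46% of all genes were called and 3.07% were called higher. Ifitm3 read 11.73, 10.61 and 11.14 after CD34+ cells against 10.20, 9.87 and 9.75 after saline, a rise of 1.22 ± 0.32 (2.33-fold, adjusted p = 0.0187). Tapbp read 11.41, 10.77 and 10.97 after CD34+ cells against 10.50, 10.70 and 10.46 after saline, a rise of 0.50 ± 0.13 (adjusted p = 0.019). The other Tapbp probe set differed by 0.26, and the Tapbp call was lost with the mean of all probe sets. The groups were separated for both genes, and 12 members in all were separated upward, as 7.42% of all genes were. The median difference was 0.52 against -0.03 over all genes. H2-Ab1 missed the threshold at 1.30 ± 0.41 (adjusted p = 0.0512), as did Bst2, coding tetherin, which holds budding viruses at the cell surface, at 0.74 ± 0.24 (adjusted p = 0.0579) and B2m at 1.0 ± 0.34 (adjusted p = 0.0644). The other H2-Ab1 probe sets differed by 0.34 and 0.29 here, less than the one used. H2-Eb1 was 0.95 ± 0.34 higher (adjusted p = 0.0861), with 7.53, 8.11 and 7.53 after CD34+ cells against 7.01, 6.49 and 6.82 after saline, and here replicate 1 was not the highest array.

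The CD34+ result also depended on single arrays. Without P5 CD34 replicate 1 the median was 0.31 and 0 members were called, with Ifitm3 at 0.94 (adjusted p = 0.106) and Tapbp at 0.32 (adjusted p = 0.131). Without replicate 2 there were 9 calls, all higher, among them B2m, H2-K1 and H2-Ab1, without P5 saline replicate 2 there was 1 and without P5 saline replicate 3 there were 0. Fitted on these 6 arrays only, 0 members passed. Of the 19 microglia markers 18 differences were positive and 3 passed in this comparison, and the list mean was 9.91, 7.74 and 8.47 after CD34+ cells against 8.18, 7.56 and 7.55 after saline. Pigment epithelium markers were called higher in 4 of 9 (median 1.22). The mean of the lens markers was 7.52, 14.17 and 14.08 after CD34+ cells against 13.92, 13.51 and 10.98 after saline. Replicate 1, which stands apart, thus had the lowest lens mean of these arrays. The part of these markers in the result was not tested.

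After the combination at P5 most differences were again positive, and none of its arrays stood apart. Against P5 saline 0 members were called, and 0% of all genes were, with 32 of 38 differences positive and a median of 0.32 against -0.03. At an unadjusted p under 0.05 there were 3: Stat2 (0.36 ± 0.12, adjusted p = 0.421), Ifitm3 (0.82 ± 0.32, adjusted p = 0.51) and Bst2 (0.50 ± 0.24, adjusted p = 0.63). Among all 12393 genes 978 reached that level, a similar share, so this count does not set the members apart. Stat2 read 7.93, 7.88 and 8.10 after the combination against 7.37, 7.80 and 7.67 after saline, and Bst2 8.43, 8.13 and 8.10 against 7.86, 7.81 and 7.49. Ifitm3 read 11.21, 10.46 and 10.61 after the combination against 10.20, 9.87 and 9.75 after saline. None of these 3 genes overlapped between the groups. All 3 combination arrays lay above all saline arrays for 13 members, as for 4.79% of all genes. Xist was high on all 3 combination arrays and low on P5 saline replicates 1 and 3, and the part of pup sex was not tested. The mean of the lens markers was 12.56, 9.29 and 8.81 after the combination against 13.92, 13.51 and 10.98 after saline, and its part was not tested. The 3 comparisons of cells with saline at P5 share the P5 saline arrays, so their shifts are not independent of each other. Median differences of the 3 class I genes were 1.0 after ECFC, 0.72 after CD34+ cells and 0.25 after the combination.

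**Figure D4:**
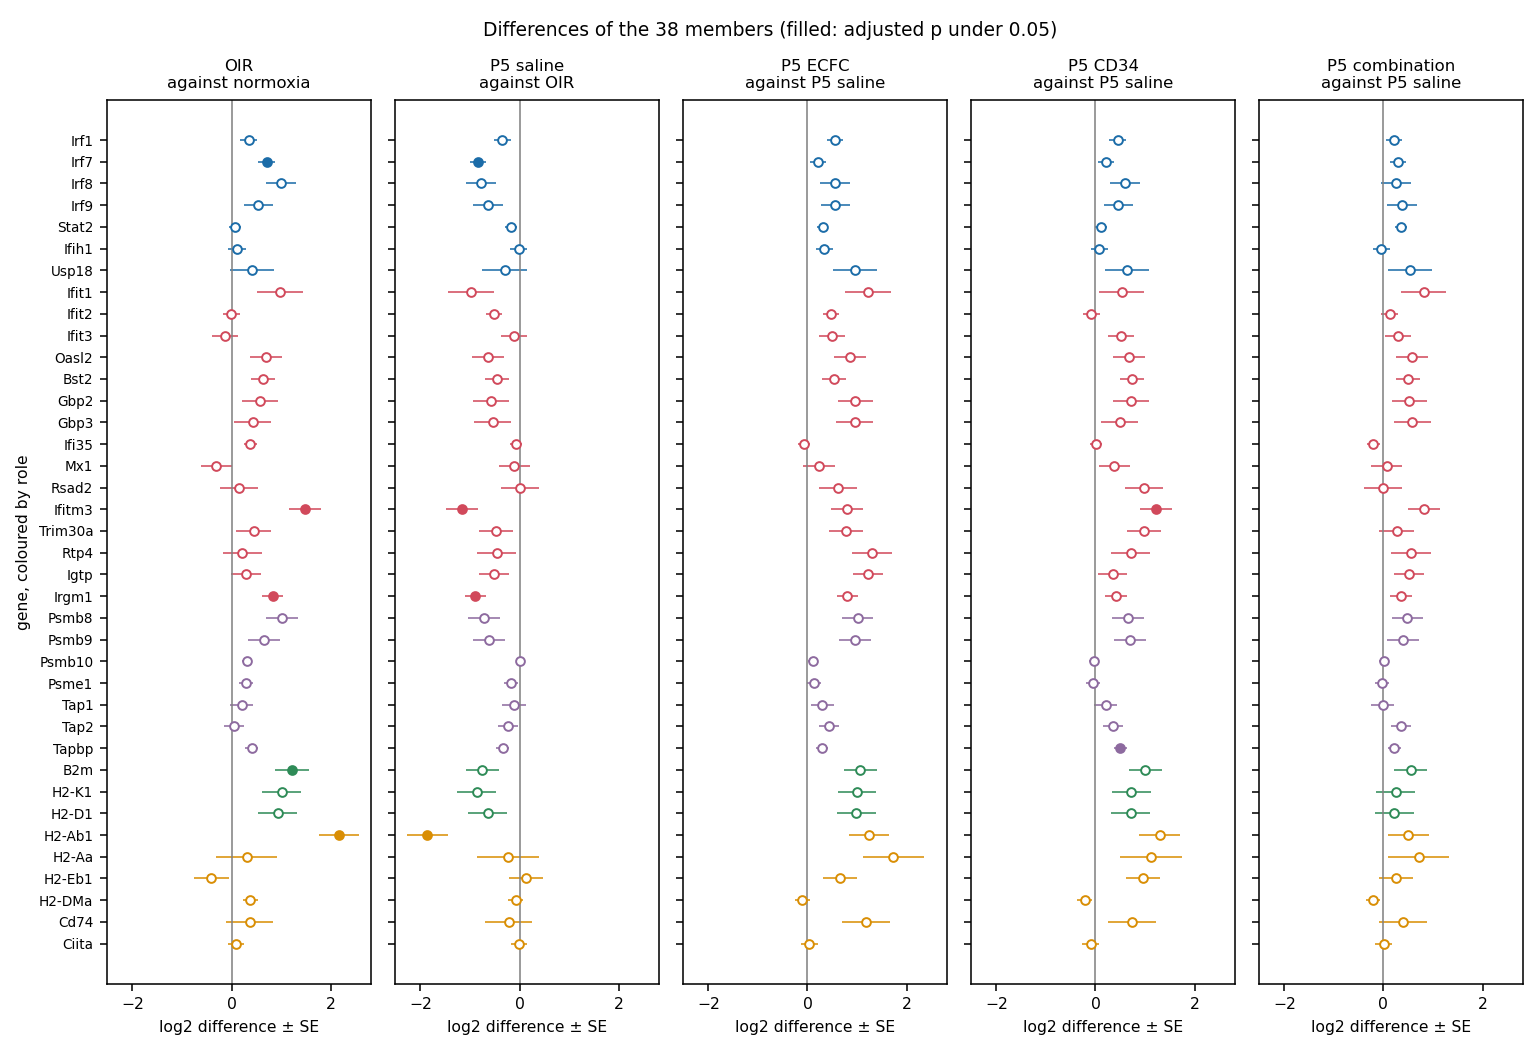
Log2 difference ± SE (limma) of each of the 38 members in 5 comparisons, one panel each, with filled points for an adjusted p under 0.05 and the colours of roles as in the map of all members. Points lie mostly right of 0 for OIR against normoxia (median 0.39) and for P5 ECFC, CD34+ cells and the combination against P5 saline (0.64, 0.52 and 0.32), and left of 0 for P5 saline against OIR (-0.46).

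Between the cell types at P5, ECFC against CD34+ cells gave 1 called member where 7.08% of all genes were called. Ifit2, an effector that binds viral RNA, read 8.75, 8.72 and 9.35 after ECFC against 8.33, 8.71 and 8.10 after CD34+ cells, a rise of 0.56 ± 0.17 (adjusted p = 0.0468). Without P5 ECFC replicate 3 that difference was 0.35 (adjusted p = 0.242), and instead H2-Eb1 and Bst2 were lower after ECFC, with differences of -1.02 (adjusted p = 0.00667) and -0.66 (adjusted p = 0.0216). With both arrays that stand apart left out, an alternative added after seeing the data, H2-Eb1 alone passed at -1.11 (adjusted p = 0.0024). The call of Ifit2 was lost under 7 of 16 alternatives, among them leaving out P5 ECFC replicate 1, P5 CD34 replicate 1 or P5 CD34 replicate 3. Pigment epithelium markers were called lower after ECFC in 5 of 9, and their part was not tested. The combination against CD34+ cells at P5 gave 0 called members, where 7.83% of all genes were called, with Rsad2, the gene of viperin, at -0.98 ± 0.38 (adjusted p = 0.128). It read 7.75, 7.70 and 6.97 after the combination against 8.38, 8.76 and 8.23 after CD34+ cells.

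Whether a cell type acted differently at P5 and at P12 was tested as an interaction, and 0 members passed for ECFC, CD34+ cells or the combination, where 0.0323%, 1.9% and 0% of all genes did. Median differences of the effects, P5 minus P12, were 0.47, 0.51 and 0.38. The smallest adjusted p among members was that of Ifitm3 for CD34+ cells, at 1.38 ± 0.45 (adjusted p = 0.103). For ECFC H2-Ab1 differed by 1.60 ± 0.58 (adjusted p = 0.323) and for the combination Stat2 by 0.51 ± 0.17 (adjusted p = 0.346). The P5 and P12 combination arrays also differ in Xist, and the part of pup sex was not tested.

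Over the 10 groups, the mean of the 38 members was 8.05 after ECFC at P5, 7.90 after CD34+ cells at P5, 7.83 in OIR and 7.80 after ECFC at P12. It was 7.69, 7.68, 7.65 and 7.63 after the combination at P5, CD34+ cells at P12, saline at P12 and the combination at P12, and 7.38 after saline at P5 and 7.34 in normoxia. Class I had its lowest group mean in normoxia (9.99) and its highest after ECFC at P5 (11.31), class II likewise (6.08 and 6.97), and effectors were lowest after saline at P5 (7.05). Both highest means rested on 1 array. Without P5 ECFC replicate 3 that group had 10.77 for class I, below P5 CD34 (11.10) and OIR (11.04). For class II it had 6.36, below every other group except P5 saline (6.18) and normoxia (6.08). Its mean over the members was then 7.62, and that of P5 CD34 without replicate 1 was 7.70. SDs of the member mean within a group reached 0.77 after ECFC at P5 and 0.36 after CD34+ cells at P5, so most neighbours in this order are not separated by their spread.

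Other genes of the pathway, 82 measured in 5 lists of ligands and receptors, sensors, further interferon-induced genes, further antigen presentation genes and the constitutive proteasome, were tested in the same fit. In OIR against normoxia 6 rose and 1 fell, 8.54% of the 82 against 4.56% of all genes. Ifnar2, a chain of the type I interferon receptor, rose by 0.66 ± 0.19, the sensors Tlr3 and Sting1 by 0.70 ± 0.14 and 0.72 ± 0.19, Lgals9 by 1.41 ± 0.25 and Ifitm2 by 0.96 ± 0.28. Ifi204, at 3.74 against 3.22, rose within the range of background. Rfx5, a factor of class II promoters, fell by 0.57 (SE 0.12, adjusted p = 0.00398). Ifnar1, the other chain of the type I receptor, differed by 0.09 ± 0.10 and Ifngr1, of the interferon gamma receptor, by -0.03 ± 0.13. No constitutive proteasome gene passed. Nlrc5, the class I transactivator gene, had no single-symbol probe set and was not analysed here.

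After saline at P5, against OIR, 1 of the 82 rose (Rfx5, by 0.42) and 5 fell, among them Tlr3, by 0.65, and Lgals9, by 0.92. That is 7.32%, near the 8.69% of all genes. After saline at P12, 4 rose, among them the kinase gene Jak1 by 0.64, and 5 fell, among them Trim25, a ubiquitin ligase of the RIG-I pathway, by 0.77. That is 11% of the 82, under the 21.3% of all genes. After CD34+ cells at P5, against P5 saline, 6 rose and 2 fell, 9.76% of the 82 against 8.46% of all genes. The rises were in Ifitm1 (1.73 ± 0.34, adjusted p = 0.00428) and Ifitm2 (1.23 ± 0.28), which share a family with Ifitm3, in the lysosomal thiol reductase gene Ifi30 (1.17 ± 0.24), and in Ifi27l2a, Tlr3 and Ptpn2 (1.18 ± 0.35, 0.53 ± 0.14 and 0.37 ± 0.11). Jak1 and Cmpk2 fell by 0.46 and 0.43. After ECFC at P5, against CD34+ cells at P5, Ifitm1 and Ifitm2 were lower (-1.32 ± 0.34 and -1.16 ± 0.28), and Cmpk2 and Rfx5 were higher (0.74 ± 0.13 and 0.39 ± 0.12), 4.88% of the 82 against 7.08% of all genes.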

How the data were processed

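The authors deposited a table of log2 values for 22690 probe sets and 30 arrays, already normalized. Amplified, biotin-labelled cDNA was made from 100 ng of column-purified RNA, per the labels' protocols. Partek is the tool in the submitters' processing notes, which give no version. How the values were summarised and normalized is not given in the sources used here, and they were used unscaled. Of the probe sets, 64 were controls, 20380 had 1 symbol, 691 several and 1555 none. Symbols were updated through the RefSeq table, with 29 unmatched, and the brightest probe set per symbol gave 12393 genes.

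limma 3.58.1 in R 4.3.3 fitted group means to the 30 arrays together, leaving 20 residual degrees of freedom, with 17 comparisons, two-sided, adjusted over all genes within each. The pipeline was tested on simulated data. Replicate numbers were not treated as pairs in the main fit. Residual correlations of same-numbered arrays ran from -0.45 to 0.45, and 0 of 14 comparisons had all pairs above 0.1. With 3 arrays per group this cannot exclude a pairing. Precision is limited by 3 arrays per group. Members, lists and tests were chosen with earlier results of these data known. Any member could be named; array values were given for those called, or for up to 3 of smallest p, and for fixed genes such as Irf7, B2m and Cd74. Pathway genes were named when called, up to 4 per list, besides Ifnar1 and Ifngr1. The alternatives were quantile normalization, median centring, the mean of all probe sets of a gene, leaving out the dimmest 30% of genes, trend and robust settings, a replicate block, only the groups compared, lens or hybridisation control means as covariates, and leaving out each array. Leaving out both arrays that stand apart was added after seeing the data.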

Additional observations from a re-analysis of the deposited data

How the results depend on the processing

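Of 239 alternative values for the 16 member calls, 169 stayed past the threshold, 70 did not and 0 changed sign. Precision is limited by 3 arrays per group, and signal near background limits Irgm1, H2-DMa, H2-Aa, Mx1, Usp18 and Ciita. The causes of the changes below were not tested, and the counts are given without the share of all genes called in the same setting. The number of members called in OIR against normoxia was 3 after median centring and 9 in the groups compared alone, and 2 to 5 leaving out single arrays. In P12 saline against OIR it was 1 after median centring (higher, not lower), 1 without dim genes, 0 with the hybridisation covariate and 1 to 3 leaving out arrays. In P5 saline against OIR it was 0 with the lens covariate, 7 with the hybridisation covariate, 2 in the groups compared alone and 2 to 4 leaving out arrays. In P5 saline against normoxia it was 0 with the mean of all probe sets, with the replicate block and in the groups compared alone, 2 without dim genes, and 0 to 1 leaving out arrays. The hybridisation covariate gave 2 calls for P5 ECFC, 4 for P5 CD34+ cells and 1 for the P5 combination against P5 saline, and 1 for each of the 3 interactions. In P5 CD34+ cells against P5 saline it was 5 without dim genes, 0 in the groups compared alone, 0 to 9 leaving out single arrays and 3 without both arrays that stand apart. Leaving out arrays gave 0 to 2 calls in P5 ECFC against P5 saline. In P5 ECFC against P5 CD34+ cells it was 0 with the lens covariate and in the groups compared alone, and 0 to 2 leaving out arrays. In the P5 combination against P5 CD34+ cells it was 1, lower, with the mean of all probe sets, 1 without both arrays that stand apart, and 0 to 1 leaving out arrays. The CD34+ interaction gave 0 to 2 leaving out arrays. In all other settings the counts stayed within 1.5 times. The replicate block changed the count of calls by over 1.5 times only in P5 saline against normoxia.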
